A study of Mus musculus with 4 samples.

Results

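LSD1 occupancy was examined at the genes of LSD1 itself and of 3 of its partner proteins in differentiating mouse muscle cells. The data are 2 lists of LSD1 ChIP-seq peaks, 1 for each stage, and the members are the peaks that overlap 4 windows of the mm9 genome, each a gene with its flanks. The windows are those of Phf21a (chromosome 2, 92000000 to 92220000), Kdm1a (chromosome 4, 136090000 to 136175000), Rcor1 (chromosome 12, 112255000 to 112370000) and Gfi1 (chromosome 5, 108125000 to 108175000). They hold 16 of the 44039 peaks at day 2 and 10 of the 17446 peaks at day 5. The genes were chosen by their known roles and with the peak scores in view. The Phf21a window holds the highest score of both lists, at day 2 as 1 of 3 peaks with that score. The values below are therefore a description and carry no test.

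The cells were C2C12, an established mouse myoblast line that stops dividing and fuses into myotubes when serum is withdrawn. All groups were grown in medium with 25 mM glucose and 10% fetal serum, then moved to the same glucose with 2% horse serum for 48 h (day 2, labelled differentiating) or 120 h (day 5, labelled differentiated). Chromatin crosslinked with formaldehyde and disuccinimidyl glutarate was precipitated with a polyclonal antibody to LSD1. Each day had 1 LSD1 library and 1 input library, with no genotype or drug stated in the labels. No difference between the days can be set against replicate error, and peak number and width also follow sequencing depth, which is unknown here. Each peak has a score, which is the authors' value as their peak caller wrote it, on a scale that is not stated. It is used to order peaks within a list, and a peak's place is counted from the highest score. Peaks of the 2 days that share at least 1 bp are called partners, and a decile is 1 of 10 equal parts of a list ordered by score.

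LSD1, the product of Kdm1a, is a flavin-dependent demethylase that acts on lysine residues of the histone H3 tail. It works in a complex with CoREST, the scaffold protein encoded by Rcor1, which joins it to histone deacetylases and lets it act on nucleosomes. Phf21a encodes BHC80, a subunit whose PHD finger binds the unmethylated tail of histone H3, the state that the enzyme leaves behind. Gfi1 encodes a zinc finger repressor, best known from blood cell development, which brings LSD1 and CoREST to DNA through its short N-terminal SNAG domain. In muscle precursors LSD1 is known for a part in the timing of differentiation.

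The DNA just before the annotated start of each gene is shown, since the windows are built around these genes and the sequence under the peaks was not used here. The sequences are from RefSeq on GRCm38.p6, a later assembly than mm9, and all 4 genes matched by symbol. Whether a peak covers any of them was not determined, because positions were not converted between the 2 builds. Each run is the 250 bases before the start, read 5′ to 3′ along the gene, which is on the plus strand for Phf21a and Rcor1 and on the minus strand for Kdm1a and Gfi1. For Phf21a and Gfi1, which have 2 starts in the table, the most upstream is shown. Capitals mark CANNTG (the E-box, bound by myogenic factors such as MyoD, the same on both strands) and AATC or its reverse complement GATT (the core of the site that Gfi1 protein recognises), which nowhere overlapped here.
Phf21a: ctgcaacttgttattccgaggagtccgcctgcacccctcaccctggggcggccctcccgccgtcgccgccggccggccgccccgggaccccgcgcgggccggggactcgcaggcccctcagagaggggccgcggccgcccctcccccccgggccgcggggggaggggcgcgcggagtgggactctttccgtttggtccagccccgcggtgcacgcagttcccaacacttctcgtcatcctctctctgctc
Kdm1a: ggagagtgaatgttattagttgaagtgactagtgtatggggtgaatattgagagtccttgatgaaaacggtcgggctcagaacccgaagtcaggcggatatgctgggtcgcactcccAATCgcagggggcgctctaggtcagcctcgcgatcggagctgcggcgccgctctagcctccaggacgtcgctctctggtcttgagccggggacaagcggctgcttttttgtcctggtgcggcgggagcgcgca
Rcor1: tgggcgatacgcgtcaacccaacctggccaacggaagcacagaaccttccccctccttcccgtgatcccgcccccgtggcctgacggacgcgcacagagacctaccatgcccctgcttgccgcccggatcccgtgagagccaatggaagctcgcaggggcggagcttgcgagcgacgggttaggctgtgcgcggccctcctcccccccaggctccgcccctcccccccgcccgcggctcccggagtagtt
Gfi1: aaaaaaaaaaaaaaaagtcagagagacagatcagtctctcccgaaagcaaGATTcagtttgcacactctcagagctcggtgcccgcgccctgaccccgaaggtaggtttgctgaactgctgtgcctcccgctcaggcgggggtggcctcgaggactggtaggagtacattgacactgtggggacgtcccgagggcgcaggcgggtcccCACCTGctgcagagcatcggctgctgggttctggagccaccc

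Of these 4 sequences, 3 lay above the upper quartile of all promoters in CG dinucleotides. Phf21a had 30 of them, Rcor1 25 and Kdm1a 21, against a median of 6 (quartiles 2 to 16) over the 32851 promoters of the table, and Gfi1 had 13. As many or more were found in 5.94% of all promoters for Phf21a, 10.7% for Rcor1, 16.3% for Kdm1a and 31.5% for Gfi1. The second start of Phf21a had 0. Among the paralogs Phf21b, Kdm1b, Rcor2, Rcor3 and Gfi1b, the number ran from 5 (Gfi1b) to 39 (Rcor3). Of the 4 sequences shown, that of Gfi1 holds an E-box (CACCTG), and 66.2% of all promoters hold 1 in this length. The second starts of Phf21a (CATGTG) and Gfi1 (CAAGTG) have 1 each, and so do Kdm1b and Rcor2, while Gfi1b has 2. AATC or GATT stood once each before the shown starts of Kdm1a and Gfi1 and before the second start of Phf21a, where 69.0% of promoters hold it. A match or its absence in this stretch is a description of letters and says nothing of binding.

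The 4 windows differed widely in the strength of their LSD1 sites. At day 2 the highest score was 3100 in the Phf21a window, 591 in the Kdm1a window, 265 in the Rcor1 window and 68.0 in the Gfi1 window. At day 5 the highest scores were 2608 at Phf21a, 157 at Rcor1, 64.8 at Kdm1a and 52.6 at Gfi1, so Kdm1a and Rcor1 stood in the opposite order within the later list. Phf21a came first and Gfi1 last on both days in these windows. Gfi1's place depended on the window: with 10 kb more at each end its highest scores were 281 and 99.99, above that of Rcor1 at day 2 and above that of Kdm1a at day 5. Most members were ordinary for their lists: the median score was 82.5 at day 2 against 104 over the whole list, and 69.6 at day 5 against 72.2.

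**Figure D1:**
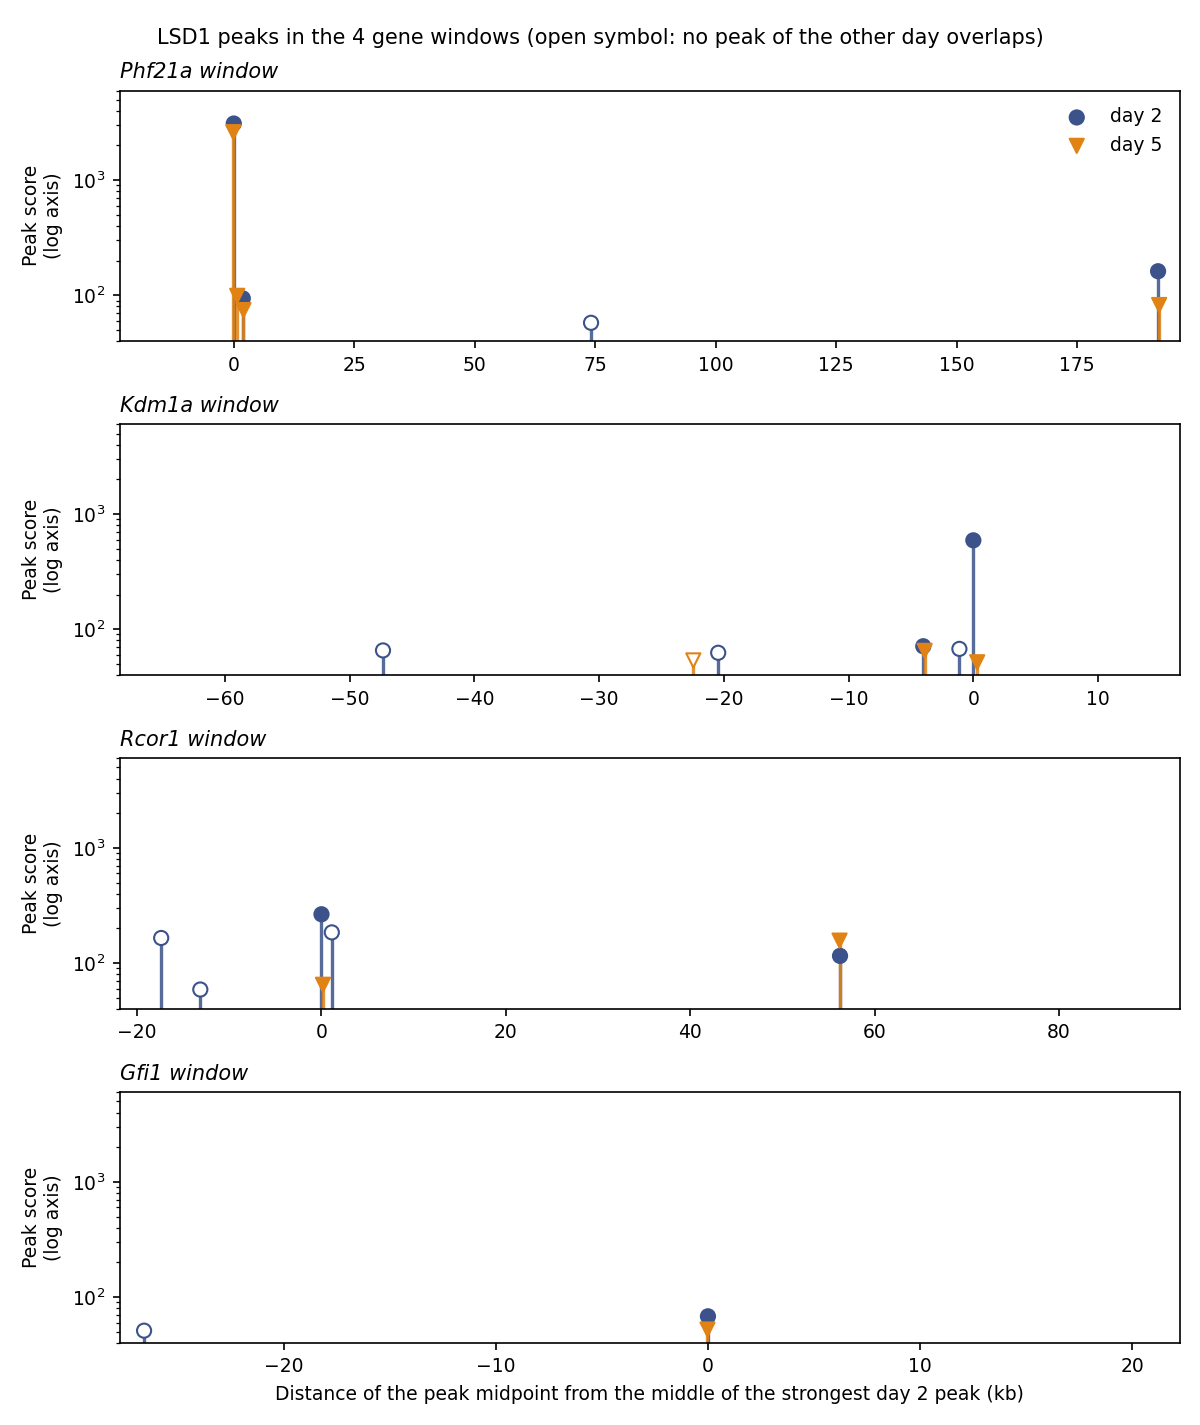
Peak score (log axis) of every LSD1 peak in each window against its distance in kb from the middle of the window's strongest day 2 peak, with day 2 as circles and day 5 as triangles. Open symbols have no overlapping peak on the other day. The Phf21a window has 1 site far above all others on both days, and at Kdm1a the tall day 2 site meets a day 5 peak near the floor of the list.

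**Figure D2:**
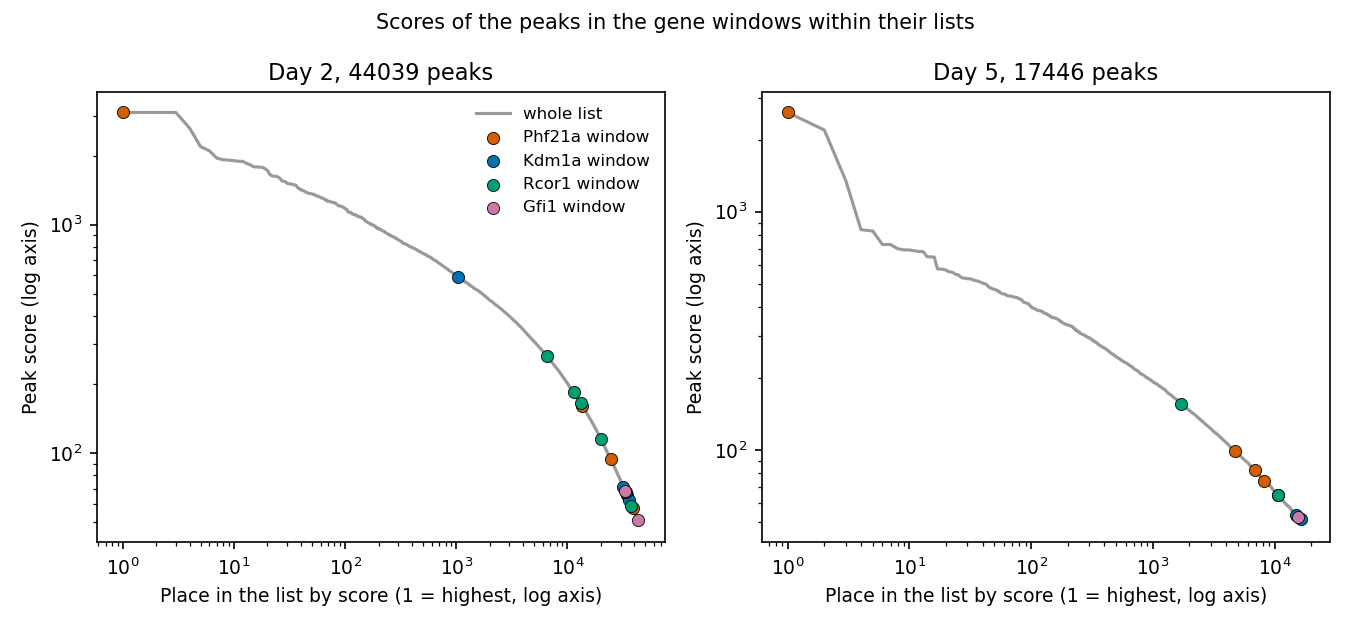
Score of each list's peaks against their place by score (both axes log), with the members coloured by window and the whole list as a grey line. Phf21a holds place 1 of both lists, while most other members lie in the lower part of the curve.

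Among the corepressor subunits, Phf21a had the highest-scoring LSD1 site, tied for first in the day 2 list and alone in first place at day 5. At day 2 its peak spanned 92022805 to 92024612, 1808 bp, and scored 3100, a value it shared with 2 other peaks of that list. The next score there was 2642, and whether 3100 is a limit of the scale is not stated. The counterpart of the Phf21a peak in the day 5 list, from 92023057 to 92024168 (1112 bp), was alone at the top, with 2608 against 2201 for the next. It lay inside the day 2 peak, 252 bp from its lower end and 444 bp from its upper end, and covered 61.5% of it.

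A second, weak day 5 peak sat on the edge of the same broad day 2 site. It spanned 92024272 to 92024563, began 103 bp after the strong peak ended, and had a score of 98.9 (place 4747 of 17446). The Phf21a site was the only 1 of the 8 partnered day 2 members to hold 2 day 5 peaks. Over the whole list 11.3% of partnered day 2 peaks did so.

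A satellite site 658 bp further along was present on both days. It scored 93.9 at day 2 (92025271 to 92025882) and 74.4 at day 5 (92025555 to 92025896). The later peak reached 14 bp beyond the upper end of the earlier peak. This was 1 of 2 pairs among the members in which the day 5 peak was not wholly contained.

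The rest of the long Phf21a window held few LSD1 peaks. A day 2 peak at 92097497 to 92098188 stood alone, 71614 bp after the satellite and 116865 bp before the next peak, with a score of 57.7. No day 5 peak lay within 71600 bp of it, and in its score decile only 7.40% of day 2 peaks had a day 5 peak. The last site, near the upper end of the window, had a score of 162 at day 2 (92215054 to 92215946) and 82.3 at day 5 (92215575 to 92215870). Large2 and Pex16 follow Phf21a in the RefSeq gene order, and the files do not assign the last site to a gene. The 220 kb window held 4 peaks on each day, against a median of 1 at day 2 and 0 at day 5 over tiles of that length: 34.9% of such tiles, laid end to end over the genome, held at least 4 peaks at day 2 and 15.1% at day 5, and 42.4% and 55.8% held none.

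Kdm1a, the gene of the enzyme itself, carried a strong LSD1 site at day 2 where the day 5 list had a peak of very low score. Spanning 136157861 to 136159042 (1182 bp), the day 2 peak scored 591, at place 1039, so that 2.36% of the list scored higher. The day 5 peak in it, at 136158587 to 136158935, was 349 bp wide with a score of 51.6, at place 16348 of 17446 and in the lowest decile. It lay towards the upper end of the day 2 peak, 726 bp from the lower end and 107 bp from the upper end, and covered 29.5% of it.

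Few strong day 2 peaks had a partner of so low a score, but more of them had no day 5 peak at all. This site was singled out after its values were seen. The top decile of day 2 peaks held 4404, of which 85.9% (3781) had a day 5 partner and the rest had none. In those 3781 the highest partner score had a median of 124 (quartiles 85.8 to 186). The partner score was 51.6 or lower in 54 of them, 1.43%. That share leaves out the more numerous peaks with no day 5 partner, and the day 5 list itself ends at a score of 50. The 2 scores come from separate peak calls, so this compares places in the lists and not amounts of LSD1.

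The other Kdm1a sites were weak on both days. A day 2 peak at 136156943 to 136157725 (score 67.4) ended 135 bp before the strong peak and had no overlapping day 5 peak. The site at 136154164 to 136154709 scored 71.1 at day 2 and met a day 5 peak at 136154382 to 136154718 with a score of 64.8, the highest of the window at that stage. Lone day 2 peaks stood at 136137752 to 136138242 (62.4) and 136110966 to 136111281 (65.4). In the decile of the peaks scoring 65.4, 67.4 and 71.1, 11.0% of day 2 peaks had a day 5 partner.

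The sole member found only at day 5 was in the Kdm1a window. It spanned 136135875 to 136136130, was 256 bp wide and scored 53.6 (place 15142). The nearest day 2 peak was 1621 bp away. Luzp1 overlaps Kdm1a in RefSeq, and Tex46 is next towards higher coordinates, which is upstream of this minus-strand gene. None of these peaks is assigned to a gene in the deposited lists. The 85 kb window held 5 day 2 peaks, reached by 10.2% of tiles of that length, and 3 day 5 peaks, reached by 7.08%.

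Rcor1, the gene of the scaffold CoREST, showed a broad paired site at day 2 and a separate site that ranked higher at day 5. The paired site consisted of peaks at 112276463 to 112277351 (889 bp, score 265) and 112277353 to 112278701 (1349 bp, score 185), called separately although only 1 bp lay between them. The day 5 list had a single peak here, at 112276909 to 112277232 with a score of 64.8, wholly in the first of the pair and 120 bp short of the second. The highest partner score was 64.8 or lower in 25.8% of the 2679 partnered day 2 peaks of the same decile.

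The other shared Rcor1 site lay 54155 bp further along and stood in the opposite order. It scored 115 at day 2 (112332857 to 112333446, place 19977 of 44039) and 157 at day 5 (112332891 to 112333310, place 1710 of 17446, in the top decile, whose limit was 156). It was the only 1 of the 9 member pairs in which the day 5 score was the larger number. The share over all pairs was not computed, and day 5 scores ran lower throughout (list median 72.2 against 104). This site too was singled out after its values were seen. Of the 1030 partnered day 2 peaks in its decile, 16 had a partner scoring 157 or more, which is 1.55%, and the median partner score was 66.6.

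The day 5 peak was also the closest in extent to its day 2 partner. It was 420 bp wide inside 590 bp, a width ratio of 1.40 against a median of 2.59 over the 15073 pairs of the whole lists, and covered 71.2% of the day 2 peak. The remaining Rcor1 peaks, at 112259247 to 112259792 (score 165) and 112263589 to 112263937 (59.0), had no day 5 peak within 12971 bp. The first of these is among the higher members without a partner: in its decile 44.8% of day 2 peaks had one. The lncRNA gene Gm35846 precedes Rcor1 in RefSeq, and 4930595D18Rik and Traf3 follow it.

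**Figure D3:**
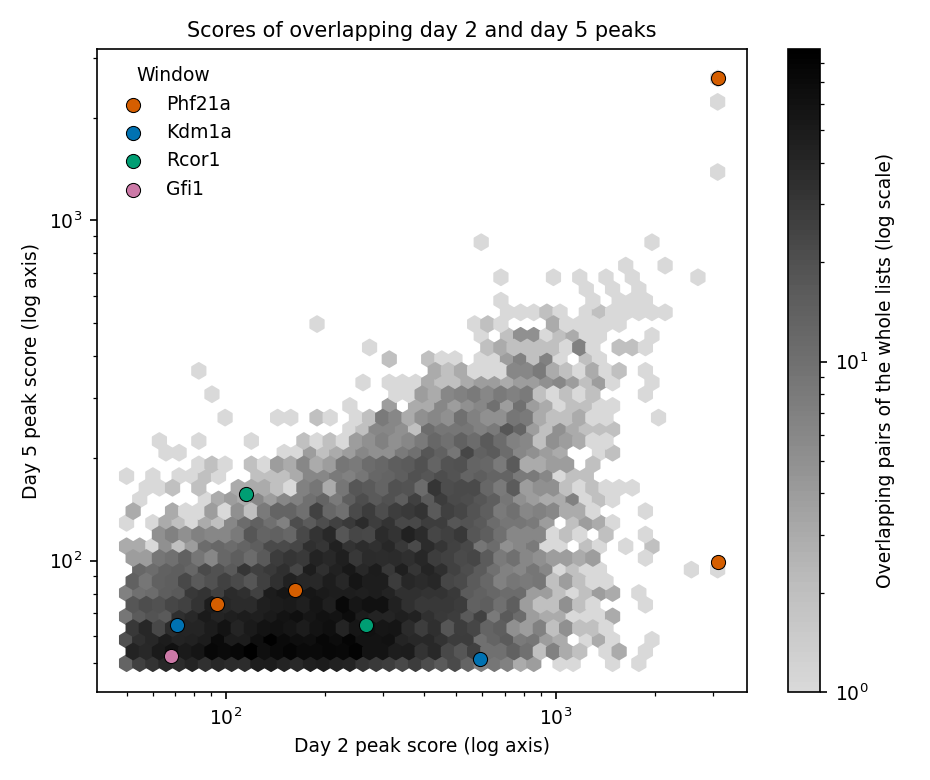
Day 5 against day 2 peak score (both axes log) for overlapping pairs, with the whole lists as grey hexagons shaded by number of pairs and the 9 member pairs coloured by window. The Kdm1a pair at 591 and 51.6 lies near the lower limit of the cloud and the Rcor1 pair at 115 and 157 in its sparse upper part.

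Gfi1, the gene of the DNA-binding partner, had only low-scoring LSD1 peaks. The site at 108152486 to 108153014 scored 68.0 at day 2 (place 33121), and the day 5 peak inside it, at 108152577 to 108152819, had a score of 52.6 (place 15619). The second day 2 peak, at 108125996 to 108126320, scored 51.0, close to the lowest value of the list (50), and no day 5 partner. It lay 996 bp inside the window, so its count rests on where the window was drawn. In tiles of 50 kb, 19.9% held at least 2 day 2 peaks and 19.4% at least 1 day 5 peak, and 65.5% held no day 2 peak.

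Just beyond the Gfi1 window lay LSD1 sites with higher scores than any inside it. On its lower side, the first peaks outside, the nearer of them 7350 bp from the edge, scored 281 at day 2 (108116933 to 108117650) and 99.99 at day 5 (108116958 to 108117432). Beyond the upper end of the Phf21a window, at 8909 bp, a day 2 peak scored 273 and its day 5 partner 76.5, both far below the highest of that window. The first day 2 peak on the other side of Gfi1 was 3300 bp out with a score of 52.3, and the first on the lower side of Rcor1 was 12312 bp out with a score of 87.6. Around Kdm1a no peak of either list lay within 20509 bp of the window.

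Read along the direction of transcription, with the strand taken from the RefSeq table, the strongest day 2 peak was the first of 4 at Phf21a and the first of 5 at Kdm1a. At Gfi1 it was the first of 2 in the window, but the last of 4 with 10 kb more at each end. At Rcor1 the strongest was the third of 5. At day 5 the strongest peak was again the first at Phf21a, but it was the second of 3 at Kdm1a and the second of 2 at Rcor1. Gfi1 then had a single peak. Where these peaks lie relative to promoters, exons or introns was not determined.

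The share of sites found again at day 5 could not be told from that of the whole list with so few peaks. Of the 16 day 2 members, 8 had a day 5 partner (50%, Wilson 95% interval 28 to 72), against 30.4% of all day 2 peaks, a share inside that interval. These were 3 of 4 at Phf21a, 2 of 5 at Kdm1a, 2 of 5 at Rcor1 and 1 of 2 at Gfi1. Of the 10 day 5 members, 9 had a day 2 partner (90%, 59.6 to 98.2), against 86.1% of all day 5 peaks. Intervals cover counting error only and treat neighbouring peaks as independent, which they are not. Where each peak had to cover at least 50% of the other, 4 pairs were left, which is 25% of day 2 and 40% of day 5 members. The strong Kdm1a site was then no longer counted as shared. The whole-list share under this rule was not computed. Over all pairs the day 2 peak was 2.59 times as wide at the median, and a pair that unequal cannot meet the rule.

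Members with a day 5 partner were the stronger and broader ones at day 2, though with much overlap between the sets. Partnered members had a median score of 139 (from 68.0 to 3100) and a median width of 750.5 bp, and unpartnered members a median score of 63.9 (from 51.0 to 185) and a median width of 518.5 bp. Over the whole list the medians were 213 and 918 bp with a partner and 84.6 and 593 bp without. At Rcor1 the peaks scoring 165 and 185 had no partner while that scoring 115 had 1, so score did not order the sites there.

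The day 5 peak was the narrower of each member pair, as in 99.2% of all pairs. In 7 of the 9 pairs it lay wholly inside the day 2 peak, where 88.4% of all pairs did so. The median width was 601 bp at day 2 (663 bp over the list) and 330.5 bp at day 5 (331 bp), and the median ratio within pairs was 2.18 (interval 1.62 to 3.39), with the whole-list value of 2.59 inside that interval. Together the members covered 11900 bp at day 2 and 3971 bp at day 5. The whole lists also covered less at day 5 (6.54e+06 bp) than at day 2 (3.41e+07 bp). Among windows, the covered share at day 2 ran from 1.71% at Gfi1 to 3.90% at Kdm1a, and at day 5 from 0.486% at Gfi1 to 1.11% at Kdm1a.

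**Figure D4:**
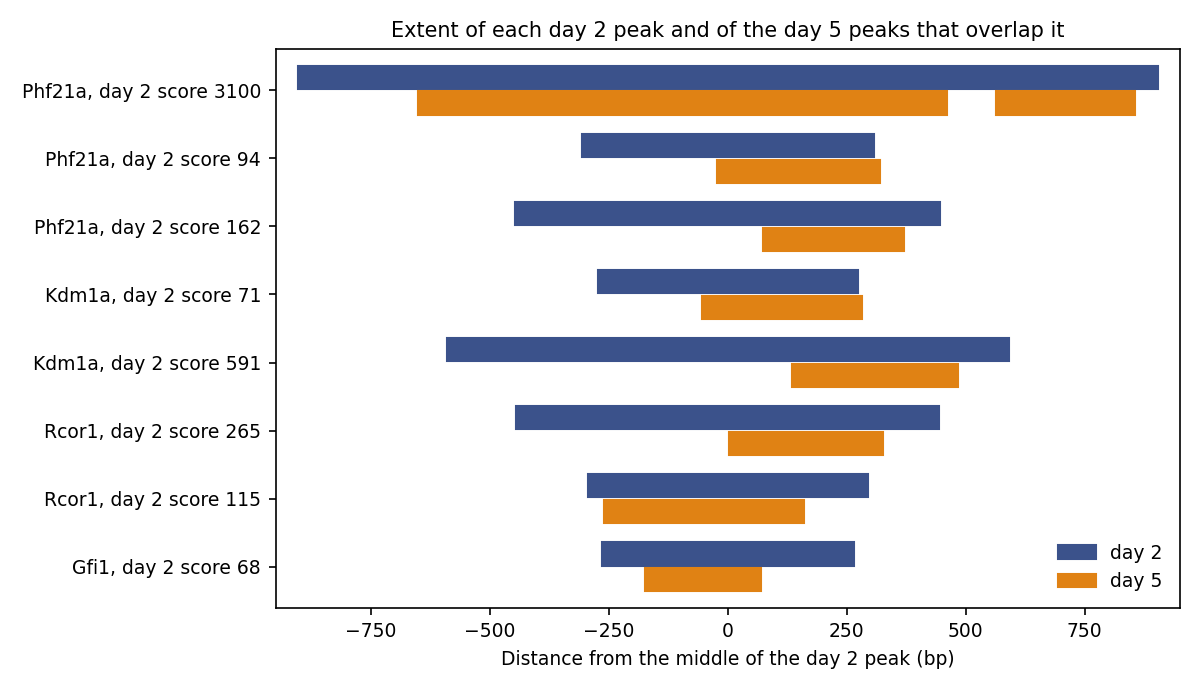
Extent in bp of each of the 8 partnered day 2 peaks (blue, above) and of the day 5 peaks that overlap it (orange, below), centred on the day 2 peak. Only the satellite site at Phf21a and the site scoring 71.1 at Kdm1a have a day 5 peak that passes the end of the day 2 peak.

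Close spacing of LSD1 peaks occurred at 3 of the genes. At day 2, 6 of the 16 members lay less than 1 kb from another day 2 peak (37.5%, interval 18.5 to 61.4). The whole-list share of 24.0% lies inside that interval. The 6 formed a pair each at Phf21a, Kdm1a and Rcor1, in each case including the window's strongest peak. The gap was 658 bp at Phf21a, 135 bp at Kdm1a and 1 bp at Rcor1. At Phf21a both sites of the pair were shared with day 5, whereas at Kdm1a and Rcor1 only the stronger of the pair met a day 5 peak. In the day 5 list, 3 of the 10 members lay that close to another peak (30%), all at Phf21a, against 23.7% of the list.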

How the data were processed

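LSD1 ChIP-seq peaks of C2C12 cells at 2 stages were analysed, 1 library each, with groups taken from the sample titles. The deposited lists give position, width and the score of each peak, which the authors left as MACS run in Galaxy gave it, per the file headers. Bowtie2, deepTools and the build mm9 are named in the submitters' processing notes. No source used here gives the MACS version, its cutoff or control, or what was done with duplicates. Inputs and read totals were not analysed.

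The members and lists were chosen with earlier results of these data known. All peaks of each window are given, with the strongest, unpartnered, split and edge peaks named. Peaks overlapping by at least 1 bp were partners. Deciles were by score. Tiles had each window's length, counted by peak midpoint. Shares have Wilson 95% intervals and medians order-statistic intervals. Overlap counting was tested on simulated data. No mm9 annotation was used, so the planned list of other complex genes was not run, and protein comparisons were not run. Work was done in Python 3.11.15 with pandas 2.3.3, NumPy 2.4.6, Matplotlib 3.10.9 and SciPy 1.17.1.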

Additional observations from a re-analysis of the deposited data

How the results depend on the processing

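Of 55 alternatives for 7 values, 42 stayed within the counting interval (numbers of peaks within 1.5 times), 13 moved, and none could change sign. The intervals are wide with so few peaks, so staying inside them shows little. The share of day 2 members with a partner counted as staying at 28.6% with the day 2 median as limit for both lists. It also did so at 66.7% with the day 2 list cut to the length of the day 5 list. At or above the median score of their own list, 7 day 2 and 5 day 5 members were left. With the day 2 median as limit for both lists, 7 and 2 were left, all (100%) of the latter with a day 2 partner, and the day 5 width was 766 bp and the width ratio 1.52. Cutting the day 2 list to the length of the day 5 list left 6 day 2 members, 1037.5 bp wide, and a partner for 50% of day 5 members. Where each peak had to cover at least 50% of the other, 25% and 40% had a partner. Leaving out the Kdm1a window gave 100% of day 5 members with a partner. That window holds the only day 5 member without a partner. The other moves came in settings with fewer peaks or a stricter overlap, and their cause was not tested. No paired analysis was possible because each group has 1 library and no value comes from a test. Depth is unknown, so a missing day 5 peak need not be a missing site.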
